A study of Mus musculus with 6 samples.

Results

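Nfat5, the 3 osmolyte genes Slc6a6, Slc5a3 and Akr1b3, and the Nfat5 relative Nfatc3 were examined in the mouse retina, 5 of the 13072 genes in the deposited table. The 5 genes were chosen by name from earlier results of the same comparison, in which the level of Nfat5 differed between the groups. Their differences are therefore given as descriptions, with no test of their own. All 10 of their transcripts among the 26721 deposited ones were followed as well.

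The study compared 3 retinal libraries of connective tissue growth factor-deficient mice, labelled CTGF-/-, with 3 libraries of wild-type (WT) mice. Connective tissue growth factor, encoded by Ctgf, is a secreted protein of the extracellular matrix. Both groups were on the C57BL/6 background and were sampled on postnatal day 7. The CTGF-/- mice were made with an inducible Cre/lox system, and neither the promoter that drives the Cre nor any treatment of the WT mice to match the induction is given in the sources used here. Whole retinas were used, so fewer cells of a type and less RNA per cell cannot be told apart. The labels do not say whether each library came from a separate animal, and if they did not, p-values measure only technical spread.

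NFAT5, also called the tonicity-responsive enhancer binding protein, is a transcription factor of the Rel family. In cells under hypertonic stress it turns on genes that let them gather small organic osmolytes. Among its best known targets are Slc6a6, the taurine transporter, Slc5a3, the sodium-coupled myo-inositol transporter, and Akr1b3, an aldose reductase that makes sorbitol from glucose. Taurine is an abundant free amino acid of the retina, and mice without Slc6a6 lose their photoreceptors. Nfatc3 encodes a relative of NFAT5 that, unlike it, is switched on by the calcium-dependent phosphatase calcineurin.

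Nfat5 lies on chromosome 8 (GRCm38, 107293470 to 107379517, plus strand), and 5 of its 14 transcripts annotated in GENCODE M21 are in the deposited table, all protein coding. Their ends are what sets them apart. Nfat5-214 has 15 exons and 13380 bases, and Nfat5-202 has 12 exons and 12773 bases with a start farther downstream, at 107338807. Both finish with the same last exon of 8359 bases (107371158 to 107379516), which follows the stop codon and is thus all 3′ untranslated sequence. Nfat5-203 (14 exons, 5899 bases) and Nfat5-208 (7 exons, 5481 bases) hold only the first 1021 and 2373 bases of that exon. Nfat5-201 (13 exons, 4619 bases) splices to a last exon of 716 bases (107378793 to 107379508), which lies within the far end of the long exon, and so ends its protein differently. The sequences below show the 2 coding ends and the exon that is particular to Nfat5-214 among the listed forms. They are from GENCODE M21 transcripts on GRCm38, plus strand, 5′ to 3′. First come the 42 bases that end the coding sequence of Nfat5-214 (chr8:107370612-107370653) and of Nfat5-201 (chr8:107378793-107378834), with the stop codon in capitals. The first stretch is in an exon that Nfat5-202, Nfat5-203 and Nfat5-208 also hold, and the second is untranslated sequence in Nfat5-214 and Nfat5-202, so neither stretch by itself identifies a form.
Nfat5-214 coding end: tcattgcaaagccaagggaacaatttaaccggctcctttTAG
Nfat5-201 coding end: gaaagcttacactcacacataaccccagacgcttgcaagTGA

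Exon 2 of Nfat5-214 (chr8:107295581-107295634) is in none of the other listed forms. Its 54 bases are in 4 of the 14 annotated transcripts, and Nfat5-214 is the only listed one of those 4. No part of it is in capitals.
Nfat5-214 exon 2: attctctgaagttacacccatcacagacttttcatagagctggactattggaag

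**Figure D1:**
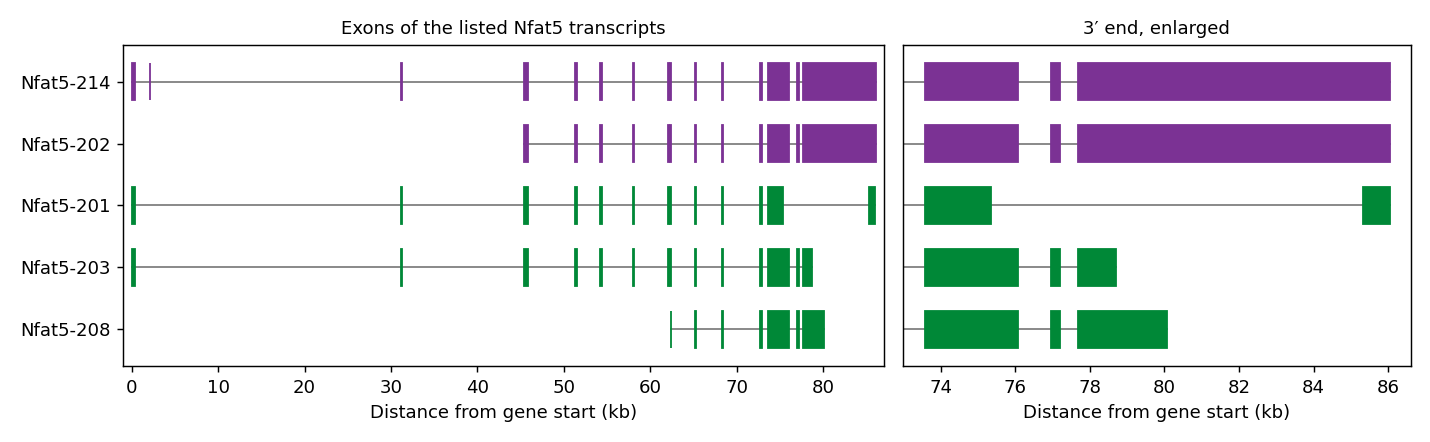
Exons (boxes) and introns (lines) of the 5 listed Nfat5 transcripts by distance from the gene start in kb, with the 3′ end enlarged at the right. Nfat5-214 and Nfat5-202 (purple) share a last exon of 8359 bases, and each of the other 3 (green) holds only a part of it.

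The Nfat5 gene level was 3.38, 3.61 and 3.65 FPKM (fragments per kilobase of exon, scaled to the mapped fragments of the library, as deposited by the authors) in CTGF-/- replicates 1 to 3, against 11.3, 11.9 and 11.8 FPKM in WT replicates 1 to 3. Every CTGF-/- library was low and every WT library high, with a wide gap between the groups and little spread within either. Means were 3.55 ± 0.148 FPKM in CTGF-/- and 11.7 ± 0.309 FPKM in WT (SD, n = 3 each), which is 3.29-fold lower in CTGF-/-. On the log2(FPKM + 1) scale the Nfat5 difference was -1.48 (SE 0.08), the fourth lowest of the 12915 genes tested.

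Slc6a6, on chromosome 6 (91684053 to 91759066, plus strand), was the most abundant of the 5 genes. Its level was 20.6, 24.3 and 23.4 FPKM in CTGF-/- retinas, against 22.8, 22.3 and 25.2 FPKM in WT retinas. The groups overlapped, and the Slc6a6 difference of -0.04 on the log2 scale (SE 0.09) was smaller than its error. The taurine transporter was thus high in all 6 libraries, including those low in Nfat5.

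Slc5a3, on chromosome 16 (92058322 to 92087473, plus strand), had 2.34, 1.95 and 2.79 FPKM in CTGF-/- retinas, against 2.74, 3.01 and 2.40 FPKM in WT retinas. The groups overlapped here as well, with a Slc5a3 log2 difference of -0.15 (SE 0.12), the second lowest of the 5. In GENCODE M21 this gene lies within the span of Mrps6 and Gm49711 on the same strand, neither of which is analysed here. Reads shared with them could have been divided either way, so the level of this myo-inositol transporter is uncertain.

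Akr1b3, on chromosome 6 (34302434 to 34317478, minus strand), had 2.87, 2.57 and 3.06 FPKM in CTGF-/- retinas, against 2.49, 2.55 and 3.16 FPKM in WT retinas. The aldose reductase gene overlapped between groups, and its log2 difference of 0.04 (SE 0.11) was again within its error. Gm14546 is annotated on the opposite strand across it and is not analysed here. The libraries were strand-specific per the labels' protocols, and whether the counting used the strand is not given in the sources used here.

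Nfatc3, also on chromosome 8 (106058840 to 106130537, plus strand), had 4.25, 3.71 and 4.58 FPKM in CTGF-/- retinas, against 4.60, 4.35 and 4.23 FPKM in WT retinas. Its groups overlapped, with a log2 difference of -0.06 (SE 0.10). The difference of this calcineurin-dependent relative was within its error. Nfatc3 ends 1163 kb upstream of Nfat5.

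Within CTGF-/- retinas the order of the FPKM levels was Slc6a6, Nfatc3, Nfat5, Akr1b3 and Slc5a3. Within WT retinas it was Slc6a6, Nfat5, Nfatc3, Akr1b3 and Slc5a3, so Nfat5 and Nfatc3 exchanged places. Akr1b3 and Slc5a3, the neighbours at the low end, overlapped in both groups and have no firm order. The other neighbours in the order did not overlap between their libraries in either group. The order depends on the merged exon length that gene FPKM is divided by, 8384 bases for Akr1b3. Its form Akr1b3-201 has 1387 bases and averaged 16.0 FPKM in CTGF-/- and 15.2 FPKM in WT. The order is thus not one of transcript abundance.

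**Figure D2:**
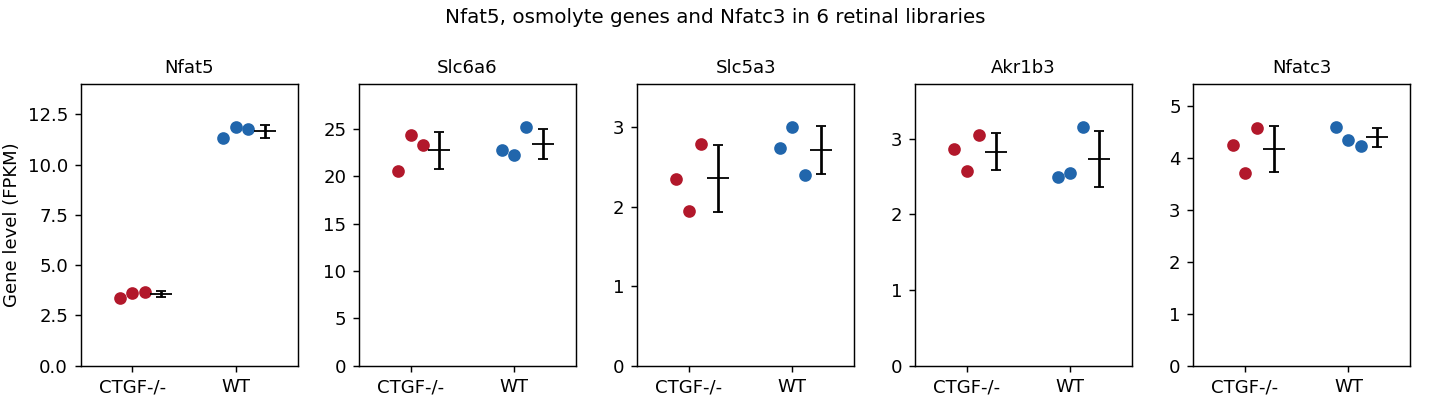
Gene level in FPKM of the 5 genes in each library, CTGF-/- (red) at the left and WT (blue) at the right of each panel, with the mean and SD of 3 libraries as a bar. Nfat5 sits at 3.38 to 3.65 in CTGF-/- and 11.3 to 11.9 in WT, and the groups overlap in the other 4 panels.

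By limma with Benjamini-Hochberg adjustment, 1 of the 5 genes, Nfat5, had an adjusted p under 0.05, where 0.0465% of all genes tested did (6 of 12915, or 2 when any single WT library was left out). One of the 5 was lower in every CTGF-/- library than in every WT library, where 10.9% of all genes were, and 0 of 5 were higher in every CTGF-/- library, where 7.53% were. Since the 5 were chosen from this comparison, nothing is read from these shares. In the authors' deposited table Nfat5 has a q-value of 0.0283 and is the only gene with a q-value under 0.05. It is in the authors' list of 14 lower genes, and none of the other 4 genes is in that list or in their list of 16 higher ones.

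The listed Nfat5 transcripts did not all differ in the same direction. Nfat5-214 had 0.672, 0.697 and 0.638 FPKM in CTGF-/- retinas, against 6.23, 6.65 and 4.58 FPKM in WT retinas. The form with the extra exon 2 and the long last exon was thus low in each CTGF-/- library, with a log2 difference of -2.02 (SE 0.19). Nfat5-202 had 0.583, 1.12 and 0.612 FPKM in CTGF-/- retinas, against 2.98, 2.48 and 5.11 FPKM in WT retinas, a log2 difference of -1.32 (SE 0.28). It shares the long last exon and was likewise lower in every CTGF-/- library.

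Nfat5-201, with its own coding end, went the other way. It had 1.45, 1.63 and 1.45 FPKM in CTGF-/- retinas, against 0.808, 0.788 and 0.742 FPKM in WT retinas, a log2 difference of 0.50 (SE 0.15). Nfat5-208, which begins late in the gene, had 0.766, 0.577 and 0.860 FPKM in CTGF-/- retinas, against 0.401, 0.413 and 0.444 FPKM in WT retinas, a log2 difference of 0.29 (SE 0.15). Both were low in all 6 libraries but higher in each CTGF-/- library than in any WT library. Nfat5-203 had 1.92, 2.75 and 2.24 FPKM in CTGF-/- retinas, against 2.57, 1.96 and 1.19 FPKM in WT retinas, and its groups overlapped (log2 difference 0.20, SE 0.24). It was the most abundant listed form in CTGF-/- retinas, while Nfat5-214 was the most abundant by mean in WT retinas.

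**Figure D3:**
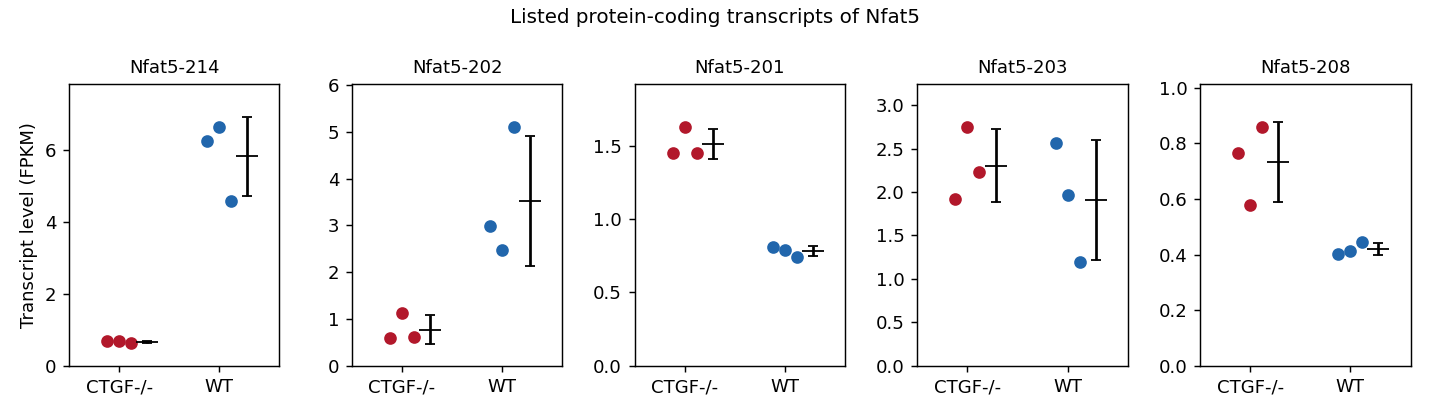
Level in FPKM of the 5 listed Nfat5 transcripts in each library, CTGF-/- (red) at the left and WT (blue) at the right, with the mean and SD of 3 libraries. Nfat5-214 and Nfat5-202 are lower in all CTGF-/- libraries, Nfat5-201 and Nfat5-208 are higher in all of them, and Nfat5-203 overlaps.

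Of the 9 transcripts of the 5 genes that were tested, 0 had an adjusted p under 0.05 by limma, against 0.0239% of all transcripts tested, and 3 had an unadjusted p under 0.05, as did 1267 of all 25082. The transcripts lower in every CTGF-/- library were 2 of the 9, against 7.53% of all transcripts, and those higher in every CTGF-/- library were also 2, against 5.9%. The 4 are the Nfat5 forms already given. In the authors' deposited table Nfat5-214 and Nfat5-202 are among the 263 lower transcripts, and no transcript of the 5 genes is among the 194 higher ones. Division of short reads among forms that share most exons is an estimate, so the gene level is firmer than these values.

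The forms of the other 4 genes overlapped between the groups. Slc6a6-201 had 27.6, 32.6 and 31.1 FPKM in CTGF-/- retinas, against 30.6, 29.7 and 33.4 FPKM in WT retinas. Akr1b3-201 had 16.6, 14.3 and 17.2 FPKM in CTGF-/- retinas, against 13.9, 13.8 and 17.9 FPKM in WT retinas. Slc6a6-201 is the main one of 2 listed forms, Akr1b3-201 is the only listed form of its gene, and neither set the groups apart. Nfatc3-201 had 7.20, 6.67 and 8.06 FPKM in CTGF-/- retinas, against 8.15, 7.55 and 7.63 FPKM in WT retinas. Nfatc3-201 and Slc5a3-201 are also the only listed forms of their genes, and Slc5a3-201 has the gene's own values. The short form Slc6a6-209 averaged under the 0.5 FPKM needed for testing, and it is listed at 0 in CTGF-/- replicate 2.

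Summed by whether their last exon is over 8000 bases, the listed Nfat5 forms differed in both level and makeup. Nfat5-214 and Nfat5-202, with such an exon, are called long-ended here. Nfat5-201 ends close to them, at 107379508 against 107379516, but its last exon is short. The split is thus not one of far against near 3′ ends. Nfat5-214 and Nfat5-202 together had 1.26, 1.82 and 1.25 FPKM in CTGF-/- retinas, against 9.22, 9.12 and 9.70 FPKM in WT retinas. Their summed mean was 1.44 ± 0.328 FPKM in CTGF-/- and 9.35 ± 0.308 FPKM in WT (SD, n = 3 each), 6.48-fold lower in CTGF-/-. The long-ended forms were thus further apart than the gene level. Nfat5-201, Nfat5-203 and Nfat5-208 together had 4.14, 4.96 and 4.55 FPKM in CTGF-/- retinas, against 3.78, 3.16 and 2.38 FPKM in WT retinas, with no overlap. The long-ended share of the listed FPKM was 23.3%, 26.8% and 21.5% in CTGF-/- retinas, against 70.9%, 74.3% and 80.3% in WT retinas. Weighted by transcript length, so that fragments are counted, the share was 43.1% ± 3.48 in CTGF-/- and 87.8% ± 2.80 in WT (SD, n = 3 each). By FPKM, most listed Nfat5 thus had a long last exon in each WT library, and a minority of it did in each CTGF-/- library.

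The mean length of the listed Nfat5 transcripts, weighted by FPKM, was 7171, 7464 and 7063 bases in CTGF-/- retinas, against 10974, 11236 and 11556 bases in WT retinas. Among genes with at least 2 tested transcripts and a length in GENCODE M21, 5.45% (319 of 5849) had a shorter mean in every CTGF-/- library than in every WT library. The log2 ratio of the Nfat5 lengths was -0.64, and 9 of the 5849 genes, Nfat5 among them, were at or below it. Genes with 1 or more forms apart in each direction made up 2.67% of those with at least 2 tested transcripts (163 of 6100). Those with 2 or more forms apart in each direction made up 0.0492%, Nfat5 among them. These shares are set beside Nfat5 as background only, since it was chosen from the same comparison.

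Together the listed Nfat5 forms were 2.08-fold lower in CTGF-/-, less than the 3.29-fold of the gene value. The deposited gene FPKM equals the fragments of all transcripts of a gene divided by its merged exon length, a relation that held within 1% in every library for 507 of 507 genes with 2 or more annotated transcripts that are all listed. The plain sum of transcript FPKM met the gene value within 1% for 15 of these 507. It lets the gene value be divided among the listed forms and a remainder in forms not analysed here, in FPM (FPKM times length in kilobases). The long-ended forms held 18.8 ± 4.21 FPM in CTGF-/- and 123 ± 3.28 FPM in WT (SD, n = 3 each). The other 3 listed forms held 24.6 ± 2.36 FPM in CTGF-/- and 17.1 ± 4.10 FPM in WT. The remainder held 21.7 ± 5.41 FPM in CTGF-/- and 74.1 ± 7.97 FPM in WT. The listed long-ended forms thus made up 69.9% of the difference between the group means and the remainder 35.1%. The other listed forms, higher in CTGF-/-, counted as -5.00%. The annotated form Nfat5-206, which is not listed, also ends with a long last exon, of 8360 bases. Part of the remainder may therefore be long-ended, and how much is unknown.

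**Figure D4:**
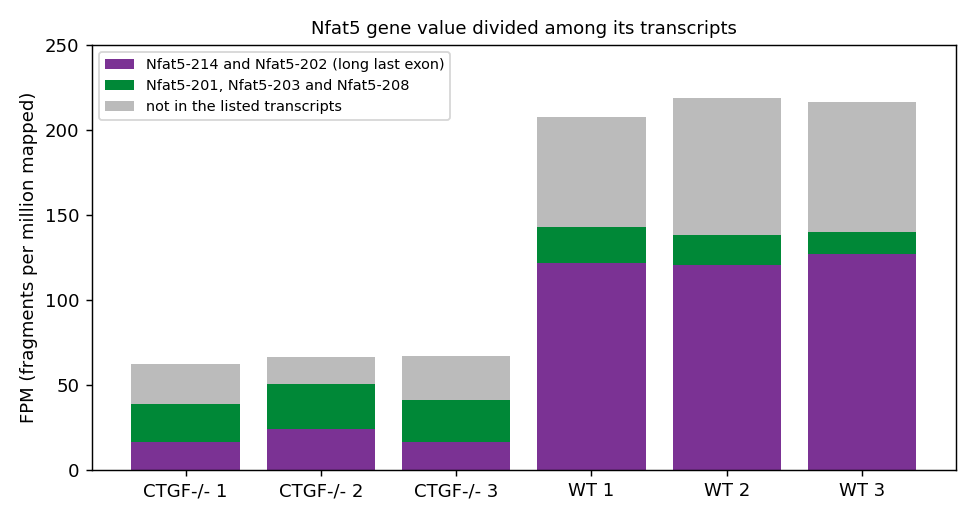
FPM (FPKM times length in kilobases) that make up the Nfat5 gene value in each library, the 3 CTGF-/- libraries left of the 3 WT ones, divided into Nfat5-214 and Nfat5-202 (purple), the other 3 listed forms (green) and forms not in the table (grey). The purple and grey parts are smaller and the green part larger in every CTGF-/- library than in any WT library.

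The listed forms held 61.0% to 76.3% of the Nfat5 fragments in CTGF-/- libraries and 63.2% to 68.6% in WT libraries. For Slc6a6 the listed share was 97.6% to 98.1% in CTGF-/- and 96.8% to 98.3% in WT, and for Slc5a3 it was 100% in both. For Akr1b3 it was 92.3% to 95.7% in CTGF-/- and 90.0% to 93.5% in WT. For Nfatc3 it was 86.4% to 91.8% in CTGF-/- and 88.5% to 91.9% in WT. Nfat5 is thus the one of the 5 with a large part of its fragments in forms that are not analysed here. The median listed share over the 11309 genes compared was 95.8%.

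Further lists covered osmolyte transporters, osmolyte metabolism, other NFAT5 targets, NFAT5 regulators, the calcineurin-NFAT pathway, and cell volume channels and cotransporters. They were collected on general knowledge with earlier results of these data known. All 6 lists gave 0 genes past the adjusted threshold by limma. In all, 76 of 93 listed genes were tested. At an unadjusted p under 0.05 there were 8 of these 76 and 1204 of the 12915 genes. Among the 76, 27 had a positive and 49 a negative difference, with a median of -0.05, beside 5800 positive and 7115 negative and a median of -0.02 over all genes tested. The lowest adjusted p of a list gene by limma was 0.533. Of the 76, 13 were lower and 3 higher in every CTGF-/- library, beside 1414 and 972 of the 12915 genes.

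Of the 4 tested osmolyte transporters, 0 passed (1 at an unadjusted p under 0.05), and their median difference was -0.12. In every CTGF-/- library 1 of the 4 was lower and 0 were higher, beside 10.9% and 7.53% of all genes tested. Slc2a13, the proton-coupled myo-inositol transporter, had 1.13, 1.03 and 1.48 FPKM in CTGF-/- retinas, against 1.84, 1.85 and 1.99 FPKM in WT retinas. Its groups did not overlap (log2 difference -0.39, SE 0.11), but it did not pass the adjusted threshold. Slc38a2, which carries neutral amino acids, was abundant, at 41.7 ± 2.51 FPKM in CTGF-/- and 38.9 ± 5.93 FPKM in WT (SD, n = 3 each). Slc6a12, the betaine transporter, averaged 0.569 ± 0.134 FPKM in CTGF-/- and 0.615 ± 0.213 FPKM in WT. Slc6a13, which carries GABA and taurine, averaged 0.721 ± 0.182 FPKM in CTGF-/- and 1.06 ± 0.691 FPKM in WT. All 3 overlapped between the groups.

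Of the 15 tested genes of osmolyte metabolism, 0 passed (2 at an unadjusted p under 0.05), with 7 differences positive, 8 negative and a median of -0.02. In every CTGF-/- library 1 of the 15 was lower and 1 was higher, beside 10.9% and 7.53% of all genes tested. Cdo1, the cysteine dioxygenase of taurine synthesis, had 4.17, 5.13 and 4.87 FPKM in CTGF-/- retinas, against 6.12, 6.16 and 5.63 FPKM in WT retinas, with no overlap. The decarboxylase Csad, which acts after it, averaged 9.79 ± 0.350 FPKM in CTGF-/- and 9.25 ± 0.501 FPKM in WT, and Ado, another thiol dioxygenase, averaged 14.8 ± 1.19 FPKM in CTGF-/- and 14.2 ± 0.950 FPKM in WT. The taurine synthesis genes thus did not lean together.

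In the polyol and inositol branches, Sord, which turns sorbitol into fructose, averaged 6.38 ± 0.476 FPKM in CTGF-/- and 6.36 ± 0.543 FPKM in WT (SD, n = 3 each). Isyna1, the inositol phosphate synthase, averaged 4.38 ± 0.381 FPKM in CTGF-/- and 4.84 ± 0.747 FPKM in WT. Both overlapped, as did the inositol monophosphatases Impa1 and Impa2, with log2 differences of -0.02 and -0.04. The aldehyde reductase Akr1a1 was the most abundant of the list, at 90.5 ± 5.07 FPKM in CTGF-/- and 87.9 ± 6.25 FPKM in WT. The closer relatives of Akr1b3 were scarce. Akr1b8 averaged 0.871 ± 0.345 FPKM in CTGF-/- and 1.32 ± 0.341 FPKM in WT, and Akr1b10 averaged 0.739 ± 0.128 FPKM in CTGF-/- and 1.03 ± 0.222 FPKM in WT. Reads of such similar genes may be divided among them, so these levels are uncertain.

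In the glycerophosphocholine branch, Gpcpd1, a phosphodiesterase that breaks this osmolyte down, had 9.77, 11.1 and 8.99 FPKM in CTGF-/- retinas, against 10.7, 16.6 and 14.2 FPKM in WT retinas. Its groups overlapped through WT replicate 1. Gdpd5, another such phosphodiesterase, had 20.0, 23.2 and 18.1 FPKM in CTGF-/- retinas, against 16.1, 17.8 and 17.7 FPKM in WT retinas, with no overlap. These 2 enzymes of the same step had differences of opposite sign, -0.42 (SE 0.16) and 0.23 (SE 0.10) on the log2 scale, the second being 0.14 without CTGF-/- replicate 2. Gde1, Pnpla6 and the betaine-forming aldehyde dehydrogenase Aldh7a1 overlapped, with log2 differences of 0.07, 0.08 and -0.03.

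Of the 7 tested genes in the list of other NFAT5 targets, 0 passed and 0 had an unadjusted p under 0.05, with a median difference of 0.05. None of the 7 was apart between the groups. Over all genes tested 10.9% were lower and 7.53% higher in every CTGF-/- library, so 0 of 7 says little. Hspa1b and Hspa1a, which encode inducible heat shock proteins, averaged 2.44 ± 0.646 and 2.67 ± 0.816 FPKM in CTGF-/-, against 1.81 ± 0.115 and 2.32 ± 0.579 FPKM in WT. They are near-identical copies and their reads may be divided between them. Hspa4l, another chaperone gene, averaged 17.2 ± 2.92 FPKM in CTGF-/- and 18.0 ± 1.50 FPKM in WT. S100a4, a calcium-binding protein, had 1.60 and 10.1 FPKM in CTGF-/- replicates 1 and 3 and is listed at 0 in replicate 2, against 2.02, 0.132 and 0.248 FPKM in WT retinas. Its CTGF-/- libraries held both the lowest and the highest value of the 6. Aqp1, a water channel, Sgk1, a salt- and steroid-regulated kinase, and Vegfc, a lymphatic growth factor, overlapped, with log2 differences of -0.12, -0.02 and 0.05.

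All 21 genes in the list of NFAT5 regulators and tonicity signalling were tested and 0 passed, with a median difference of -0.06. None had an unadjusted p under 0.05 by limma, where 1204 of the 12915 genes tested did. Mapk14, the p38 kinase that acts in osmotic stress, had 10.3, 9.17 and 9.55 FPKM in CTGF-/- retinas, against 4.77, 5.20 and 10.7 FPKM in WT retinas. WT replicate 3 was as high as the CTGF-/- libraries, and the Mapk14 log2 difference was 0.51, 0.83 without that library and 0.32 without WT replicate 1. The RNA helicase gene Ddx5 was the most abundant, at 197 ± 17.9 FPKM in CTGF-/- and 213 ± 1.33 FPKM in WT. In every CTGF-/- library 3 of the 21 were lower and 0 were higher, beside 10.9% and 7.53% of all genes tested. Among the lower ones were Spag9, a scaffold protein of kinase signalling, and Wnk1, a kinase that senses chloride and crowding. Their log2 differences were -0.19 (SE 0.10) and -0.17 (SE 0.09). Without CTGF-/- replicate 2 the Spag9 difference was -0.10.

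Of the 16 tested genes of the calcineurin-NFAT pathway, 0 passed (4 at an unadjusted p under 0.05), with 4 differences positive, 12 negative and a median of -0.15. In every CTGF-/- library 6 of the 16 were lower and 1 was higher, beside 10.9% and 7.53% of all genes tested. Gsk3b, a kinase that sends NFAT proteins out of the nucleus, had 30.8, 26.4 and 30.4 FPKM in CTGF-/- retinas, against 35.3, 38.2 and 35.6 FPKM in WT retinas, with no overlap. Homer2, a scaffold that dampens calcineurin-NFAT signalling, had 1.36, 1.13 and 1.56 FPKM in CTGF-/- retinas, against 1.70, 1.78 and 2.21 FPKM in WT retinas, again with no overlap. Fkbp1a, the binding partner of the calcineurin inhibitor tacrolimus, overlapped through WT replicate 3, with a log2 difference of -0.57 (SE 0.19). Ppp3r1, the regulatory subunit of calcineurin and the most abundant gene of this list, averaged 50.1 ± 7.78 FPKM in CTGF-/- and 54.6 ± 2.24 FPKM in WT.

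Of the 13 tested genes for cell volume channels and cotransporters, 0 passed (1 at an unadjusted p under 0.05), with a median of -0.01. In every CTGF-/- library 2 of the 13 were lower and 1 was higher, beside 10.9% and 7.53% of all genes tested. Lrrc8a, the essential subunit of the volume-regulated anion channel, through which cells release osmolytes, had 12.7, 18.2 and 9.36 FPKM in CTGF-/- retinas, against 6.11, 8.07 and 6.92 FPKM in WT retinas. Its groups did not overlap (log2 difference 0.80, SE 0.22). Its partner Lrrc8b was lower in every CTGF-/- library (-0.12, SE 0.08), as was Slc12a2, which takes up sodium, potassium and chloride (-0.28, SE 0.13). Without CTGF-/- replicate 2 these differences were -0.07 for Lrrc8b and -0.14 for Slc12a2.

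**Figure D5:**
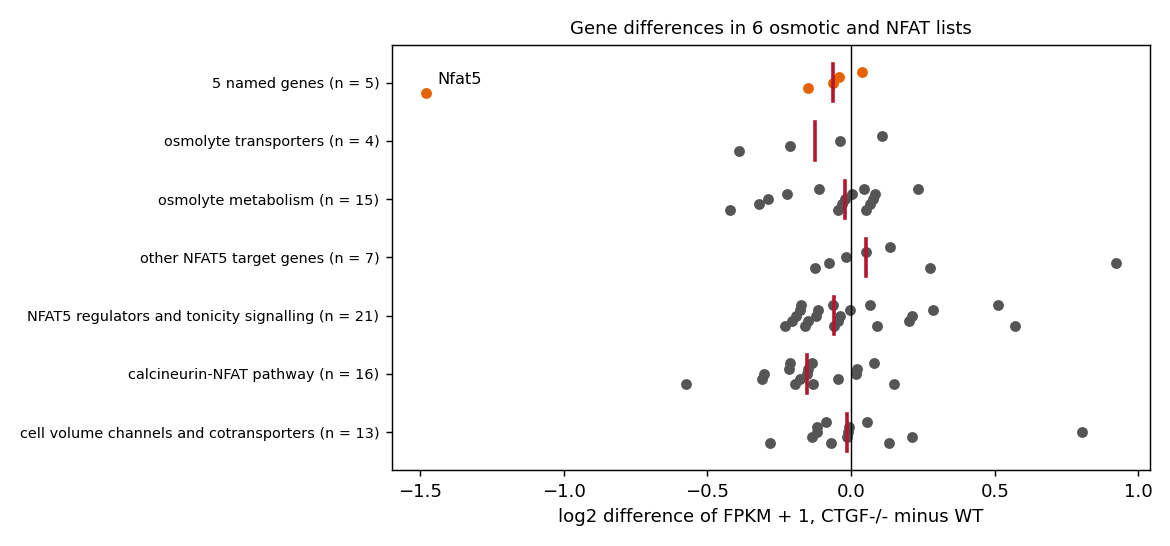
Difference in log2(FPKM + 1), CTGF-/- minus WT, of the 5 genes (orange) and of the tested genes of 6 lists (grey), with the median of each row as a red line. Nfat5 stands at -1.48, the other 4 of the 5 genes lie between -0.15 and 0.04, and the list genes lie between -0.57 and 0.92.

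The genes around Nfat5 had small differences beside its -1.48. For the 5 tested genes on each side of Nfat5 on chromosome 8, the log2 differences lay between -0.15 and 0.18. By limma 0 of these 10 passed the threshold and 0 had an unadjusted p under 0.05. Over all 12915 genes tested 6 passed and 1204 had an unadjusted p under 0.05, so these counts say little. Of the 10, Cyb5b, the nearest upstream, alone was lower in every CTGF-/- library, as 10.9% of all genes tested were. It averaged 26.3 ± 0.363 FPKM in CTGF-/- and 29.3 ± 1.95 FPKM in WT (SD, n = 3 each). Nqo1, the nearest downstream, averaged 1.11 ± 0.0967 FPKM in CTGF-/- and 1.24 ± 0.139 FPKM in WT, and its groups overlapped.

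The genes whose levels followed Nfat5 most closely over the 6 libraries, by Pearson's r of log2(FPKM + 1) among 11934 genes, were Pyurf (0.995), Dcaf10 (0.990), Ctdsp2 (0.989), Maoa (0.988) and Rbms1 (0.987). Those with the most opposite pattern were Pex19 (-0.993), Tead1 (-0.992) and Lactbl1 (-0.990). As Nfat5 splits the libraries into the 2 groups, r here reads mainly the group difference, and the 6 points share the libraries. The named genes are the extremes picked from 11934, so they are no yardstick for a single gene. Among the osmolyte genes r was 0.516 for Slc5a3, 0.264 for Slc6a6 and -0.192 for Akr1b3, and it was 0.362 for Nfatc3. Their ranks from the top were 2827 for Slc5a3, 4787 for Slc6a6, 7579 for Akr1b3 and 4104 for Nfatc3. The closest gene, Pyurf, averaged 5.97 ± 0.209 FPKM in CTGF-/- and 12.3 ± 0.582 FPKM in WT. The most abundant of the 5, Ctdsp2, averaged 11.5 ± 1.59 FPKM in CTGF-/- and 29.2 ± 1.80 FPKM in WT.

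The libraries themselves set limits on these values. Gene FPKM summed to 217674 to 230474 in CTGF-/- and 208436 to 216436 in WT, and CTGF-/- replicate 2 had 1875 transcripts listed at 0, where the other 5 libraries had 716 to 861. Ctgf was low in both groups, at 0.587, 1.0 and 0.526 FPKM in CTGF-/- retinas, against 0.932, 0.777 and 1.51 FPKM in WT retinas, and its groups overlapped. Rod markers summed to 862 to 959 FPKM in CTGF-/- and 626 to 866 in WT, with 7 of 7 higher in CTGF-/- by mean. Mueller glia markers, of which Aqp4 is not listed, summed to 186 to 193 in CTGF-/- and 194 to 207 in WT, with 3 of the 4 listed lower by mean. Lens markers summed to 257, 126 and 2225 in CTGF-/- retinas, against 329, 1.08 and 1.74 in WT retinas, with 7 of 7 higher in CTGF-/- by mean. Endothelial markers summed to 7.65 to 11.9 in CTGF-/- and 8.35 to 21.2 in WT, with 6 of 6 lower by mean. Pigment epithelium markers, of which Rpe65 and Best1 are not listed, summed to 44.9 to 51.1 in CTGF-/- and 28.9 to 51.8 in WT, with 5 of the 5 listed higher in CTGF-/- by mean. Erythroid markers summed to 138 to 323 in CTGF-/- and 94.6 to 612 in WT, with 4 of the 5 listed lower by mean. The part of any of these marker differences in the Nfat5 difference was not tested.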

How the data were processed

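Polyadenylated RNA of whole retina was sequenced in 3 CTGF-/- and 3 WT strand-specific libraries, per the labels' protocols. The submitters' processing notes name FastQC, cutadapt, HISAT2, StringTie and the build GRCm38, and the series' design text names Ballgown. The authors deposited FPKM per gene and per transcript, with genes whose group means were both under 0.5 FPKM already absent. Per the file headers the tables also hold the authors' log2 fold change, fold change as a ratio, p-value and q-value, used only where named. No read counts are in these tables, so sequencing depth is unknown and no counting interval is given.

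Differences were tested with limma 3.58.1 in R 4.3.3 (lmFit, eBayes with trend) on log2(FPKM + 1), which understates differences of low genes. The 12915 genes and 25082 transcripts that averaged 0.5 FPKM or more across libraries entered the test, with Benjamini-Hochberg adjustment over all of each and a threshold of 0.05. Differences are CTGF-/- minus WT. The limma procedure was also run on simulated log2 values with known changes, which does not test the division of reads among transcripts. The 5 genes and all lists were chosen with earlier results of these data known. Named list genes are the 3 with the smallest unadjusted p and the most abundant of each list, and all measured genes of the first 3 lists, and the values of 1 such gene are not reported here. Of 26721 transcripts, 25399 matched GENCODE M21. Alternatives changed the pseudocount, filter, scaling, variance estimate, block and libraries.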

Additional observations from a re-analysis of the deposited data

How the results depend on the processing

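Nfat5 was past the adjusted threshold of limma in 17 of 17 settings, the reported one included, and the other 4 genes were in 0 of 17. As Nfat5 was chosen from this comparison and the settings refit the same libraries, these counts give no separate support. The Nfat5 difference of -1.48 became -1.69 with a pseudocount of 0.1, -1.59 with 0.5, and -1.55 with libraries scaled to an equal FPKM total, which shifts the median of all genes by -0.07. With a pseudocount of 0.1 the differences were -2.93 for Nfat5-214, -2.04 for Nfat5-202, 0.87 for Nfat5-201 and 0.67 for Nfat5-208. The equal-total scaling also moved the median of the list genes to -0.12, beside -0.09 over all genes. Over all genes the count past the threshold was 6 as reported, 1 (Nfat5) without moderation, and 2 to 9 when a library was left out, with 2 (Nfat5 and Tead1) without any single WT library. Over all transcripts it was 6 as reported, 2 without moderation, and 1 to 7 when a library was left out, with 1 without WT replicate 1 or 3 and 3 without CTGF-/- replicate 2. With the replicate number as a block 2 genes, Nfat5 and Tead1, and 0 transcripts passed. Same-numbered libraries did not deviate together over genes (r of 0.0129, 0.171 and -0.156), and differently numbered ones had r of -0.305 to 0.371. With 3 libraries per group such values cannot show whether the libraries were paired, and the labels do not say. Counted in FPM, a choice made after the data were seen, the long-ended share of listed Nfat5 differed by -44.7 percentage points in place of -51.3. The causes of these shifts were not tested. Of the values of single transcripts and list genes, 728 stayed within the replicate spread and 18 moved beyond it, mainly low transcripts under another pseudocount. Depth is unknown, so forms under 1 FPKM, such as Nfat5-208, are the least secure.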
